A study of Rattus norvegicus with 12 samples.

Results

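The diabetic heart was compared with the non-diabetic heart in the first week after a myocardial infarction, on day 1 and day 7 after ligation of a coronary artery. The comparison rested on 4 of the 12 expression arrays of the study: a diabetic and a non-diabetic array on day 1, and the same pair on day 7. The arrays were Affymetrix rat arrays, and each held the pooled RNA of 3 male Sprague-Dawley rats, taken from the left ventricular free wall away from the infarct (the remote zone). Diabetic rats had been given streptozotocin, a toxin of the insulin-making beta cells, at 65 mg/kg, and non-diabetic rats citrate buffer, 10 weeks before the coronary artery was tied. All 4 groups therefore carried an infarct, and they differed in diabetes and in day. The rats were 18 weeks old on day 1 and 19 weeks old on day 7. At the other times both conditions were of equal age (18 weeks for sham, 20 for day 14 and 22 for day 28), except on day 56, where the diabetic rats were labelled 26 and the non-diabetic rats 22 weeks old, so age and diabetes cannot be told apart in that pair. The other 8 arrays (sham operation, day 14, day 28 and day 56, a diabetic and a non-diabetic array at each) served here to estimate the spread of a diabetic difference and to compare the first week with the other times. With 1 pooled array per condition and day, the spread between animals was not measured.

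Genes were sorted by the sign of the diabetic difference on the 2 days: those that were higher, or lower, in the diabetic array in both pairs, and those whose difference turned between day 1 and day 7. A difference is always the diabetic minus the non-diabetic value on the log2(intensity + 16) scale, where the added 16 keeps dim probe sets from giving large folds and understates their change. Of 31042 probe sets, 18625 had a mean above the 40th percentile, and they covered 10623 named genes, each represented by its brightest probe set.

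In the healthy heart most ATP comes from the oxidation of fatty acids. Without insulin, fatty acid supply rises, the nuclear receptor PPAR-alpha switches on genes such as Pdk4, Acot1, Angptl4 and Ucp3, and glucose uptake through Slc2a4 (GLUT4) falls. An infarct brings in neutrophils within a day and then macrophages, and raises stress-response, matrix and interferon-stimulated genes. The remote zone, which keeps its blood flow, takes part in this response in a milder form.

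The labelled tissue matched its markers, since 7 contractile genes of the cardiomyocyte, among them Myl2 and Tnnt2, were at intensities of 1790 or more on each of the 4 arrays. Median intensity ran from 29.7 to 34.7 on them. The 4 arrays stood apart from the other 8 in the actin control probe sets, a measure of RNA or labelling quality: the 3' minus 5' log2 signal was 0.975 to 0.994 on them and 0.365 to 0.586 on the others. The same measure for Gapdh did not separate them, at 0.316 to 0.359 on the 4 arrays and 0.113 to 0.477 on the others. The intensity of the hexokinase 5' control did, at 0.06 to 3.19 on the 4 arrays and 14.2 to 82.9 on the others. Near zero as it was, it read 3.19 on the non-diabetic and 1.19 on the diabetic array on day 1, and 2.79 and 0.06 on day 7. The actin control was nearly equal in the diabetic and non-diabetic arrays of each day, so the actin control did not move with diabetes within the first week. First week and whatever sets the actin and hexokinase controls cannot be told apart wherever the first week is set against the other times. In pooled heart RNA, fewer cells of a type and less RNA per cell cannot be told apart.

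The diabetic difference on day 1 showed next to no relation to that on day 7 over the whole array. The correlation of the 2 differences across 10623 genes was -0.0434, a description across genes, which are not replicates. Of these genes, 1723 (16.2%) were higher in the diabetic array on both days, 3247 (30.6%) were lower on both days, 2299 (21.6%) were higher on day 1 and lower on day 7, and 3354 (31.6%) were lower on day 1 and higher on day 7. The sign alone therefore sorted nearly every gene, and these shares are the background for each gene list below. On day 1, 4022 genes (37.9%) were higher in the diabetic array, and on day 7, 5077 genes (47.8%). These shares depended on the scaling of the arrays: with the array medians set equal, 4846 genes were higher on day 1 and 6174 on day 7, and after quantile normalization 5229 and 5557. The order of the shares moved too: with the medians set equal 24.6% of genes were higher and 20.9% lower in both pairs, and after quantile normalization 23.8% and 22.0%. The shares that turned moved less, to 21.0% and 25.4% for higher and then lower and to 33.5% and 28.6% for lower and then higher. Over all genes the median difference came to -0.10 for day 1 and to -0.01 for day 7, and scaling moved it by at most 0.0998. The day 1 pair was the more divergent, with an SD of differences over probe sets of 0.421 against 0.299 on day 7.

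**Figure D1:**
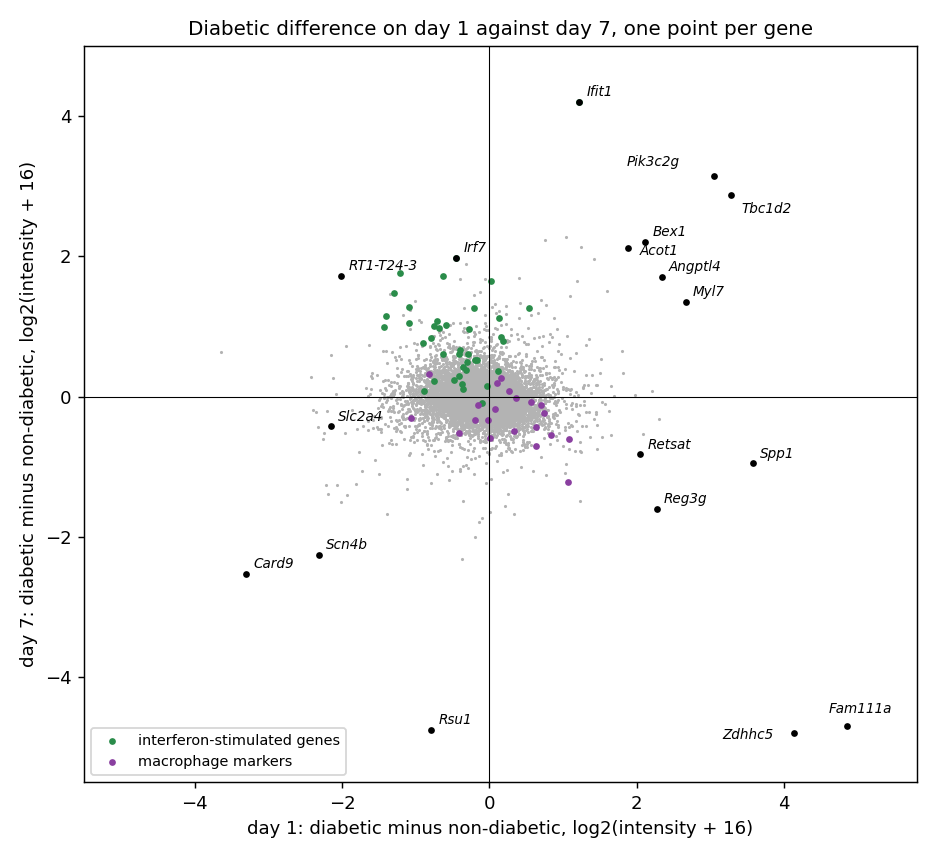
Each point is a gene; the x axis gives the diabetic minus non-diabetic difference on day 1 and the y axis that on day 7, both in log2(intensity + 16). Points form a round cloud (correlation -0.0434); the interferon-stimulated genes (green, with Ifit1 and Irf7 in black) lie mostly in the upper left and the macrophage markers (purple) mostly to the lower right, and named genes stand outside the cloud.

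Few genes differed by 1 or more, a doubling, in both pairs. Of the 18625 probe sets, 17 (0.0913%) were higher by that much in both pairs and 15 (0.0805%) lower, which came to 13 and 13 genes. Another 12 probe sets (0.0644%) were higher by 1 or more on day 1 and lower by 1 or more on day 7, and 17 (0.0913%) were the reverse, or 6 and 10 genes. The test of the diabetic difference over both days, fitted with limma on all 12 arrays with time point as a block and the spread taken from the pairs, passed an adjusted p of 0.05 for 5 probe sets (0.0268%). Of these, 3 rose and 2 fell: Pik3c2g, Tbc1d2 and Acot1 rose, and Card9 and a probe set with no listed gene fell. On the 4 first-week arrays alone, with 1 residual degree of freedom, 2 probe sets passed (0.0107%), Pik3c2g and Tbc1d2, each with an adjusted p of 0.0311 by limma. The calls were few and moved with single pairs: without the sham pair 0 passed, and without the day 56 pair 1 did.

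Pik3c2g, a class II phosphoinositide 3-kinase that makes signalling lipids, had an intensity of 119.6 on the non-diabetic and 1105 on the diabetic array on day 1, and of 43.6 and 509 on day 7. Both diabetic arrays were above both non-diabetic arrays. Its difference was 3.05 on day 1 and 3.14 on day 7, a mean of 3.09 ± 0.33 (SE from all 6 pairs, limma adjusted p = 0.02). This rise was present in every pair of the series, with differences of 1.97 to 3.55 at the other times.

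Tbc1d2, a GTPase-activating protein for Rab7 that acts in endosome and autophagosome traffic, read 20.1 on the non-diabetic and 334 on the diabetic array on day 1, and 19.1 and 242 on day 7. The mean difference was 3.08 ± 0.36 (SE from all 6 pairs, limma adjusted p = 0.0264). Elsewhere in the series the gene behaved less uniformly, with differences between -0.01 in the sham pair and 1.66 on day 28. The non-diabetic arrays at those times lay at 80.7 to 122, above both first-week non-diabetic arrays. The first week minus the other pairs came to 2.33 ± 0.45 and did not pass (limma adjusted p = 0.999).

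Acot1, the cytosolic thioesterase that splits long-chain acyl-CoA into fatty acid and CoA, read 34.4 and 171 on day 1 and 5.27 and 76.2 on day 7 (non-diabetic, then diabetic). Its mean difference was 2.00 ± 0.20 (SE from all 6 pairs, limma adjusted p = 0.02). On day 1 the non-diabetic array itself was several times brighter than on day 7, and than the 2.63 to 6.32 of the non-diabetic arrays at the other times. The fold was therefore taken against a raised non-diabetic level on day 1, and the differences at the other times, 2.44 to 2.87, were all larger than both first-week values.

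Card9, the adaptor that carries signals from fungal and microbial receptors to NF-kappa-B, fell from 449 on the non-diabetic to 31.3 on the diabetic array on day 1, and from 181 to 18.2 on day 7. Its mean difference was -2.91 ± 0.35 (SE from all 6 pairs, limma adjusted p = 0.0264). Card9 was lower in the diabetic array of every pair of the series, with differences of -3.26 to -4.49 at the other times. The fifth called probe set, for which no gene was listed, read 647 and 142 on day 1 and 613 and 89.0 on day 7. Its differences at the other times were small, -0.44 to 0.25.

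**Figure D2:**
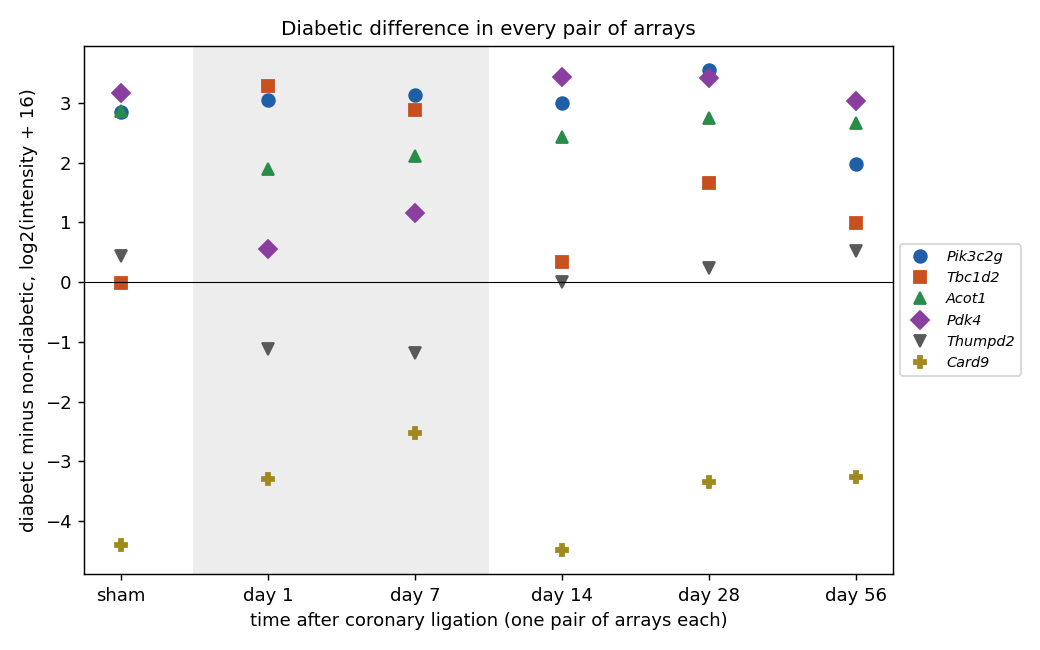
The y axis gives the diabetic minus non-diabetic difference in log2(intensity + 16) in each of the 6 pairs of arrays, in order of time on the x axis; the first-week pairs are shaded and each symbol is 1 pair. Pik3c2g, Acot1 and Card9 kept their direction in all 6 pairs, Tbc1d2 and Thumpd2 stood away from their other pairs in the first week, and Pdk4 was near 1 in the first week and above 3 elsewhere.

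The other genes that were higher by the largest amounts in both pairs did not pass the test over both days, and their values are given as a description. Bex1, a small adaptor protein of the brain-expressed X-linked family, read 112 and 538 on day 1 and 138 and 698 on day 7, differences of 2.12 and 2.21. Its relative Tceal5 differed by 1.42 and 1.96 (limma adjusted p = 0.0965). Both were also higher in the diabetic array at every other time, by 1.05 to 2.78 for Bex1 and 1.56 to 2.41 for Tceal5. Angptl4, the secreted inhibitor of lipoprotein lipase, read 204 and 1099.5 on day 1 and 39.3 and 165 on day 7. Its differences were 2.34 and 1.71, and the non-diabetic array of day 1 was brighter than the diabetic array of day 7. Ptgfr, the prostaglandin F2-alpha receptor, differed by 1.60 and 1.499, against -0.06 to 1.25 in the other pairs. Among enzymes of xenobiotic and carbonyl metabolism, Cyp1a1 differed by 1.04 and 2.27 and Cbr1 by 1.09 and 1.43.

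Contractile isoforms and blood-cell genes were also among the 15 highest. Myl7, the regulatory light chain of the atrium, read 96.3 and 698 on day 1 and 79.2 and 228 on day 7. Both diabetic arrays of the first week were thus above both non-diabetic arrays. At the other times its difference changed sign, from -1.53 in the sham pair to 2.14 on day 56. Of 8 measured atrial markers, 4 were higher in both pairs, against 16.2% of all genes. The summed intensity of the 8 was 7462 and 11950 on day 1 and 9363 and 12240 on day 7. Nppa alone made up most of the difference in that sum. Of the 8 markers, 3 were lower in both pairs, against 30.6% of all genes. The list median was 0.02 on day 1 and 0.35 on day 7. The part of atrial tissue in the Myl7 difference was not tested. No marker of the lists named here was below an intensity of 5 on all 4 arrays, among those that passed the filter. Myl1, a light chain of fast skeletal muscle, differed by 1.20 and 1.65, against -0.85 to 2.24 in the other pairs. The skeletal muscle markers together summed to 8651 and 6312 on day 1 and 8098 and 8095 on day 7. Ahsp, the chaperone of alpha-haemoglobin, differed by 1.05 and 0.86 at intensities of 56.1 or less, against -1.01 to 0.14 in the other pairs. Slfn4, a schlafen gene of myeloid cells, differed by 0.87 and 1.12, against -0.25 to 1.91. Agpat3, an acyltransferase of phospholipid synthesis, stood at 0.92 and 0.96, but its other 3 probe sets had mean differences of 0.28, -0.02 and -0.19.

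The genes lower in both diabetic arrays included ion channel, receptor and amino acid genes. Scn4b, the beta-4 subunit of the cardiac sodium channel, read 562 and 100.4 on day 1 and 795 and 153 on day 7, differences of -2.31 and -2.26 (limma adjusted p = 0.204). The beta-3 subunit gene Scn3b went the other way, at 0.95 and 0.75. Gcat, which breaks down the threonine product 2-amino-3-ketobutyrate, differed by -2.01 and -1.4985, and Aldh4a1, a mitochondrial enzyme of proline breakdown, by -1.50 and -1.11. Fndc5, the precursor of irisin, read 799 and 178 on day 1 and 724 and 294 on day 7. Dcxr, the dicarbonyl and xylulose reductase, differed by -2.22 and -1.26, Ano5, an anoctamin of muscle, by -2.19 and -1.40, and Sctr, the secretin receptor, by -1.94 and -1.41. Of these genes, Scn4b, Gcat, Aldh4a1, Fndc5, Dcxr and Sctr were also lower in every other pair.

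Shisal1 and Thumpd2 were lower in the first week with little or no difference at the other times. Shisal1 read 50.02 and 9.29 on day 1 and 60.7 and 7.95 on day 7. Its mean difference was -1.53 ± 0.21 (SE from all 6 pairs, limma adjusted p = 0.0578), against -0.49 to 0.04 in the other pairs. Thumpd2 differed by -1.12 and -1.18, against 0.0021 to 0.51 in the other pairs. The first week minus the other pairs was -1.45 ± 0.25 for Thumpd2 and -1.24 ± 0.25 for Shisal1, and neither passed (limma adjusted p = 0.508 and 0.999).

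The lowest 15 also held Aplnr, Igfbp5, Stmn1 and the class II genes RT1-Db1 and RT1-Bb. Aplnr, the apelin receptor of endothelium, read 89.6 and 14.1 on day 1 and 214 and 80.4 on day 7, but its dimmer second probe set differed by only -0.35 and 0.05. Igfbp5, which binds insulin-like growth factors, differed by -1.11 and -1.32. Stmn1, the microtubule-destabilising protein stathmin, differed by -1.09 and -0.84.

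**Figure D3:**
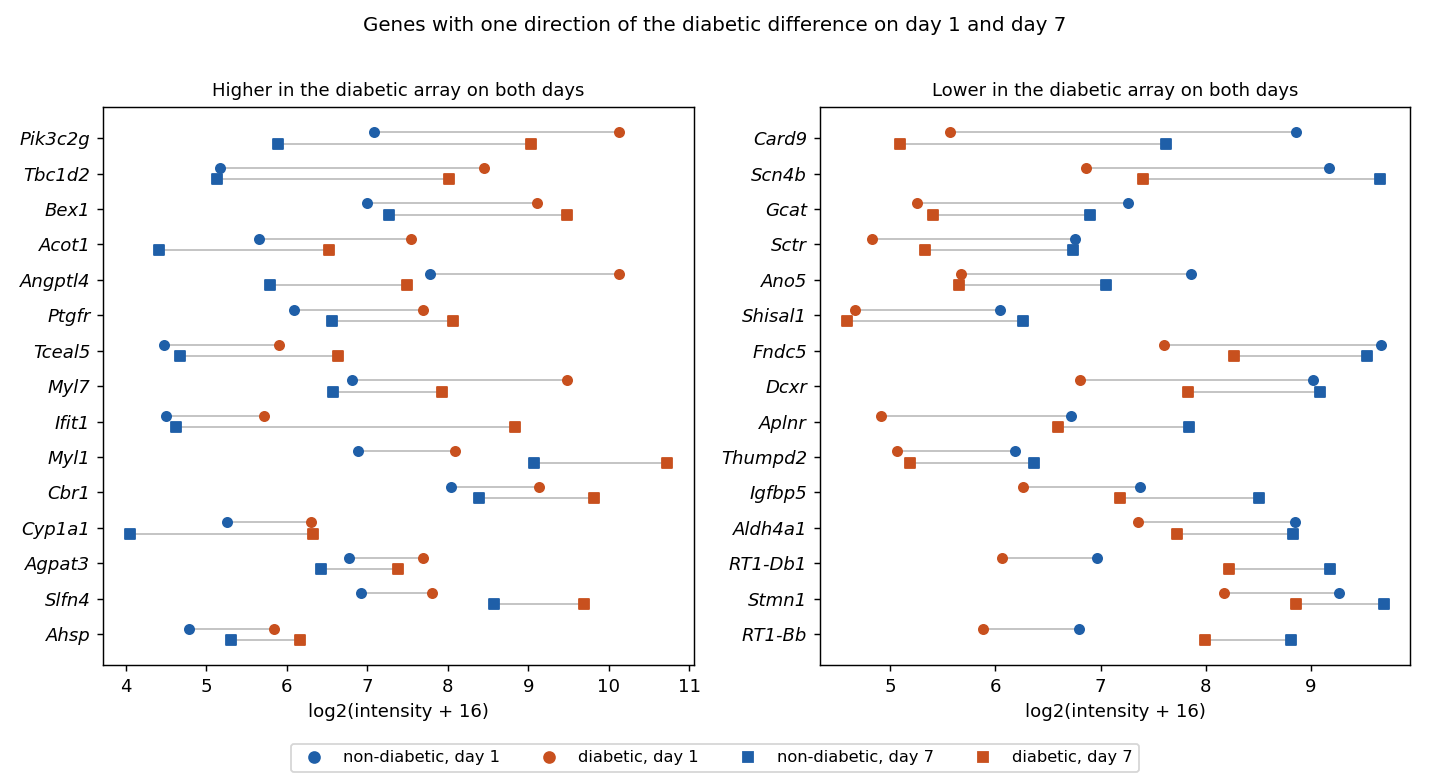
Each row is a gene and each symbol an array, placed by log2(intensity + 16) on the x axis; circles are day 1, squares day 7, blue non-diabetic and orange diabetic, and a line joins the pair of a day. The 15 genes with the largest smaller difference are shown for each direction; Pik3c2g, Tbc1d2 and Card9 have the longest pairs of lines, and Ifit1 has a far longer line on day 7 (4.21) than on day 1 (1.22).

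Genes of fatty acid use did not share 1 direction over both days of the first week. Of 9 measured thioesterases and CoA hydrolases, 4 were higher in both pairs and none lower in both, against 16.2% and 30.6% of all genes. Their medians were 0.17 on day 1 and 0.35 on day 7. Acot1 was the called member, and Acot2, its mitochondrial relative, differed by 0.39 and 0.82. Of 22 genes of beta-oxidation, 17 were lower on day 1 and higher on day 7, against 31.6% of all genes. Another 2 were higher in both pairs and 3 lower in both, against 16.2% and 30.6%. Their median was -0.25 on day 1 and 0.23 on day 7, where the median over the means of the other pairs was 0.55. Decr1, the dienoyl-CoA reductase needed for unsaturated fatty acids, was among the 2 higher in both, reading 1536 and 2634 on day 1 and 1063 and 2660 on day 7. Echs1, the short-chain enoyl-CoA hydratase, was lower at -1.14 and -0.42. No gene of these lists other than Acot1 passed the test over both days. With the array medians set equal or after quantile normalization, 5 in place of 2 of the beta-oxidation genes were higher in both pairs and 14 turned. Of all genes 24.6% and 23.8% were higher in both there, and 33.5% and 28.6% were lower and then higher. The PPAR response element was searched as AGGTCANAGGTCA on both strands, allowing 2 mismatches, and 6 of the 43 fatty acid genes with a RefSeq promoter (14.0%) held it, against 1020 of 27457 promoters (3.71%). These were Slc25a20, Crat, Acacb, Acadvl, Echs1 and Etfa. Their differences on day 1 were all below zero, from -1.14 to -0.05. So were those of 62.1% of all genes and of 20 of the 22 beta-oxidation genes. On day 7 the matching genes ran from -0.42 (Echs1) to 0.70 (Crat). Acot1 was not among the matches.

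In the carnitine shuttle, which carries fatty acids into mitochondria, 2 of 9 genes were higher in both pairs, 2 lower in both and 5 turned upward. The shares of all genes were 16.2%, 30.6% and 31.6% in that order. Cpt1a read 319 and 321 on day 1 and 219 and 372 on day 7, differences of 0.01 and 0.72, against 1.09 to 1.53 in the other pairs. Gpihbp1, which holds lipoprotein lipase on the capillary wall, differed by 0.76 and 2.23. Cd36, the fatty acid carrier of the cell surface, stood at -0.15 and 0.12, below its 0.51 to 1.57 at the other times. Ucp3, an uncoupling protein induced by fatty acids, differed by 0.45 and 0.86.

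Pdk4, which phosphorylates and so blocks the pyruvate dehydrogenase complex, had the lowest adjusted p of any gene for the first week against the other times. It read 1501 on the non-diabetic and 2224 on the diabetic array on day 1, and 630 and 1425 on day 7. The non-diabetic arrays of both days lay above the non-diabetic arrays of the other times (138 to 439), while the diabetic arrays there were at 1642 to 4248. The difference was 0.56 on day 1 and 1.16 on day 7, against 3.02 to 3.43 in the other pairs. The first week minus the other pairs was -2.40 ± 0.30 and missed the threshold (limma adjusted p = 0.0752). Its dimmer probe set gave 0.52 and 0.32, against 3.32 to 4.52. By limma no probe set passed this comparison, and 753 of 18625 had an unadjusted p under 0.05. The actin and hexokinase controls moved with this contrast and their part was not tested.

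Genes of glucose use were mostly lower on day 1, in 23 of 30 measured, against 62.1% of all genes. Their median on day 1 was -0.33, against -0.10 for all genes. Of these 30 genes of glucose use and the pyruvate dehydrogenase complex, 11 were lower in both pairs and 12 were lower and then higher. A further 4 were higher in both and 3 were higher and then lower. All genes gave 30.6%, 31.6%, 16.2% and 21.6% in that order. With the array medians set equal 11 were lower in both, against 20.9% of all genes, and after quantile normalization 12, against 22.0%. There 11 and 9 were lower and then higher, near the 33.5% and 28.6% of all genes. Slc2a4, the insulin-responsive glucose transporter GLUT4, read 450 and 88.5 on day 1 and 550 and 405 on day 7. The difference was -2.16 and then -0.43, against -1.57 to -0.40 in the other pairs. Its dimmer probe set gave -1.51 and -0.73, against -1.43 to 0.08 in the other pairs. Pfkm, the muscle phosphofructokinase, stood at -1.45 and -0.10, and hexokinase 2 (Hk2) at 0.43 and -1.003. Bdh1, the mitochondrial ketone body dehydrogenase, differed by -0.14 on day 1 and -1.79 on day 7, against -1.40 to -2.66 in the other pairs. Txnip, a thioredoxin-binding protein whose transcription follows glucose, read 1314 and 2156 on day 1 and 1033 and 2714 on day 7. None of the glucose genes passed the test over both days.

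Genes for the breakdown of branched-chain amino acids were lower in the diabetic array on day 1, in 15 of 15 measured, against 62.1% of all genes. Their median was -0.87, against -0.10 for all genes. On day 7 the median was -0.22, and 10 of the 15 genes were lower in both pairs, against 30.6% of all genes. That count was 10 under each of the 4 other scalings and offsets too. Bcat2, the mitochondrial transaminase of the first step, read 474 and 149 on day 1 and 403 and 291 on day 7. The branched-chain ketoacid dehydrogenase genes Bckdha, Bckdhb and Dbt differed by -1.30, -1.06 and -1.52 on day 1 and by -0.45, -0.30 and -0.46 on day 7. Its kinase Bckdk, which shuts the complex off, was also lower, at -0.84 and -0.52. The sham pair had a median of -0.50, and those of day 14, day 28 and day 56 were -0.12, 0.03 and -0.03. No gene of the list passed the test over both days.

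The respiratory chain was uniformly but slightly lower on day 1, in 41 of 41 genes, against 62.1% of all genes. Its median was -0.35, against -0.10 for all genes. On day 7 its median was 0.04, with 28 genes higher and 13 lower, where 47.8% of all genes were higher. Those counts were 34 and 7 with the array medians set equal and 24 and 17 after quantile normalization. Cox7a1, the muscle form of a cytochrome oxidase subunit, stood apart at -1.77 and -0.78, reading 1094 and 309 on day 1 and 604 and 344 on day 7. Contractile genes of the adult heart were likewise lower on day 1, where 14 of 16 were below zero, against 62.1% of all genes. After quantile normalization 12 of 16 were below zero, against 50.7% of all genes, and the list median moved from -0.29 to -0.15. Myh6, the fast alpha myosin heavy chain, read 5650.1 and 1790.1 on day 1 and 5983 and 4286 on day 7. Its difference was -1.65 and then -0.48, against -0.33 to -0.76 in the other pairs. Its dimmer probe set gave -1.40 and -0.19, against -2.17 to 0.27 in the other pairs, so there day 1 lay within their range. Myh7, the slow beta chain, differed by 0.01 and 0.30. Nppa, the atrial natriuretic peptide, read 3498 and 7476 on day 1 and 4773 and 6992 on day 7, whereas Nppb, the B-type peptide, stood at 0.04 and 0.13. Of the 13 hypertrophy and fetal genes measured, 8 were higher in both pairs, against 16.2% of all genes. None of the 13 passed the test over both days.

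Most interferon-stimulated genes were lower in the diabetic array on day 1 and higher on day 7. These genes are induced by type I and type II interferons, and their products block viral replication or present antigen. Of the 40 genes measured, 39 were higher in the diabetic array on day 7 and 33 were lower on day 1, so that 32 were lower and then higher, against 31.6% of all genes. The remaining 8 were 7 higher in both pairs (Ifit1, Ifit3, Isg20, Oas1a, Oasl, Lgals3bp and Trim25) and Zbp1, lower in both. Their median difference was -0.40 on day 1 and 0.81 on day 7. Setting the array medians equal or quantile normalization left 31 of 40 in that order.

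Most of the promoters searched for these genes held letters that match the sequence through which interferon factors act. The interferon-stimulated response element core was searched as GAAANNGAAA on both strands in the RefSeq promoters of the GRCr8 build, from 250 bases before to 50 bases after each gene's start, and matches that overlap were each counted. Of the 40 genes, 31 had a promoter sequence, and 22 of these (71.0%) held the core, against 1034 of 27457 promoters (3.77%) overall and 261 of the 8862 genes measured here that had one (2.95%). In 16 the core occurred once and in 6 it occurred at 2 places, and 26 of the 28 cores began within the 150 bases before the start site. Below are the 120 bases before the start site, 5' to 3' along the gene, for 6 members chosen after their values were seen, to show the core beside day 7 differences from 0.83 (Gbp2) to 1.98 (Irf7); the core is in capitals, as GAAA or, on the other strand, TTTC. They are Irf7 (chr1:205800024-205800143, minus strand), Ifit3 (chr1:241527206-241527325, plus), Oas1a (chr12:41330346-41330465, plus), Ifi44l (chr2:243328603-243328722, plus), Gbp2 (chr2:234005607-234005726, plus) and Igtp (chr10:42874927-42875046, plus).
Irf7: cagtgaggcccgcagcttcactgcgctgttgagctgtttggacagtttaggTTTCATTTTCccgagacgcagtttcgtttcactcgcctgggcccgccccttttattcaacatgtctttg
Ifit3: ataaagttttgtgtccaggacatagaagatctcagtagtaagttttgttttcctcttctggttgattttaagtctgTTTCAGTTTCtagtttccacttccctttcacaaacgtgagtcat
Oas1a: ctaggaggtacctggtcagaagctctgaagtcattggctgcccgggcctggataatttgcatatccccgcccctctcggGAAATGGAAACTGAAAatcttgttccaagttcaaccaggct
Ifi44l: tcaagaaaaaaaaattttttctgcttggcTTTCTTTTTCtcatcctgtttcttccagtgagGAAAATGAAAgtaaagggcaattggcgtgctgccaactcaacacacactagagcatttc
Gbp2: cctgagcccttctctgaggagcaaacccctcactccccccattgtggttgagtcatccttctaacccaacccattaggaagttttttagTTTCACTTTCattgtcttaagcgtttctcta
Igtp: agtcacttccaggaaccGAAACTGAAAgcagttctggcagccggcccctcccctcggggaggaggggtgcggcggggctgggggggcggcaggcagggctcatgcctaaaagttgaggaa
In Oas1a the 2 cores overlap, and in Ifi44l they lie on opposite strands. The 22 genes with the core had a median difference of -0.38 on day 1 and 0.73 on day 7, where they ran from 0.09 to 1.98. The 9 without it had medians of -0.48 and 0.61 and ran from 0.24 to 1.76 on day 7, so the ranges overlapped. Mx1 and Cmpk2, for example, had no match in this window. A match is a description of the letters and not a measured binding site.

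Irf7, the factor that amplifies the interferon response, read 127 and 88.7 on day 1 and 353 and 1438 on day 7. Its diabetic day 7 array was the highest of the 4. Mx1, a dynamin-like GTPase that traps viral particles, read 59.5 and 16.6 on day 1 and 221 and 787 on day 7. Its relative Mx2 read 28.6 and 4.90, then 116 and 302. Rsad2 (viperin) differed by -1.40 and 1.15 and its genomic neighbour Cmpk2 by -1.29 and 1.48. Isg15, the ubiquitin-like protein that is attached to other proteins, differed by -0.63 and 1.72, and Ifi44l by -1.42 and 1.00. For all of these the non-diabetic arrays were brighter on day 7 than on day 1, and the diabetic arrays differed between the days by more.

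Ifit1, which binds viral RNA, was an exception in size and in order. It read 6.62 and 36.6 on day 1 and 8.79 and 441 on day 7, differences of 1.22 and 4.21, whereas its differences at the other times ran from -2.67 to -0.43. Rtp4, a chaperone of receptors that interferon induces, differed by -1.09 and 1.05. Ubd, a ubiquitin-like modifier that was not in the list, differed by -1.01 and 1.37. The chemokine Cxcl10, an interferon target, stood at -0.30 and 1.07. No member of the list passed the test of the turn, nor the test over both days. The list was also higher in the sham pair, which had no infarct (median 0.66), and lower on day 14, day 28 and day 56, with medians of -0.27, -0.67 and -0.16.

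**Figure D4:**
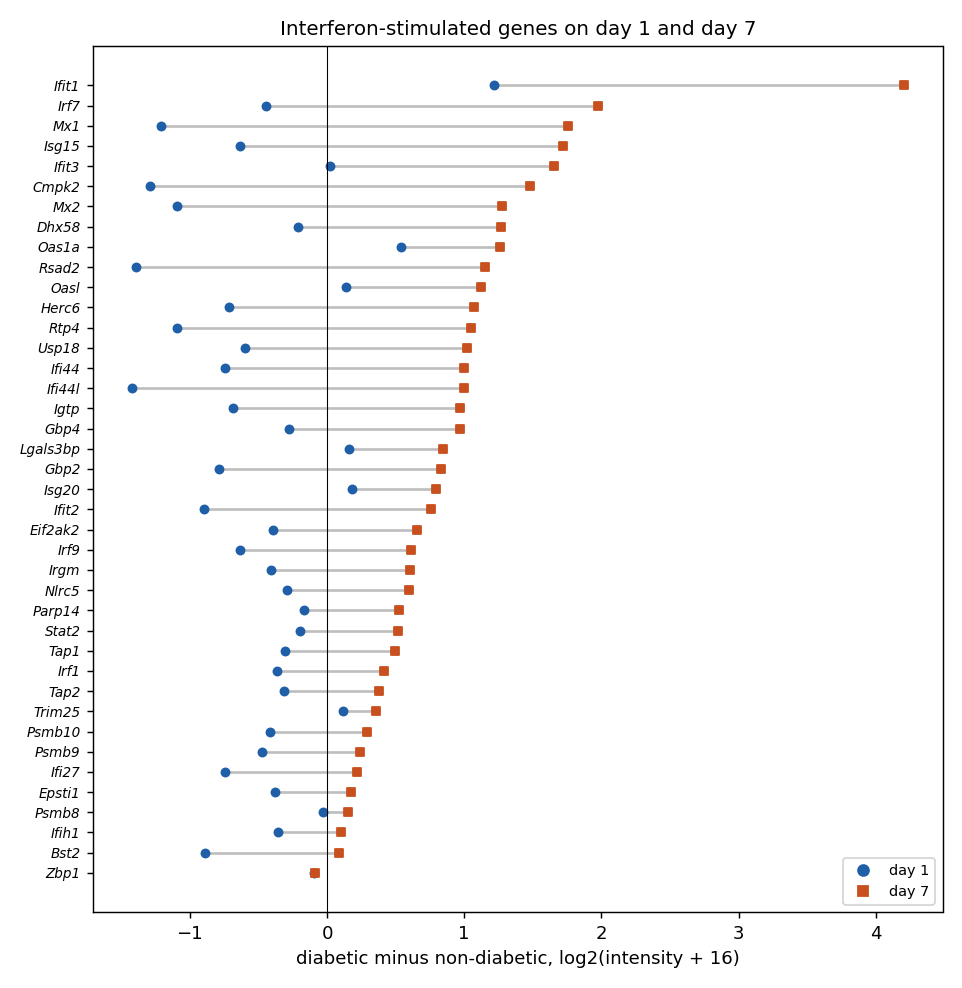
Each row is 1 of the 40 interferon-stimulated genes, and the x axis gives the diabetic minus non-diabetic difference in log2(intensity + 16) on day 1 (blue circles) and day 7 (orange squares), with genes ordered by day 7. All but Zbp1 were above zero on day 7, and 33 were below zero on day 1; Ifit1 reached 4.21.

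Macrophage markers more often turned in the opposite order. Of 21 macrophage markers, 12 were higher on day 1 and lower on day 7, against 21.6% of all genes, and the medians were 0.27 and -0.31. The medians at the other times swung more widely, from -0.23 in the sham pair and 0.30 on day 14 to -1.43 on day 28 and 0.67 on day 56. Their summed intensity was 9835 on the non-diabetic and 13670 on the diabetic array on day 1, and 14640 and 11980 on day 7. Gpnmb, a glycoprotein of lipid-laden macrophages, read 289 and 627 on day 1 and 1465 and 621 on day 7, so the diabetic arrays of the 2 days were alike. Laptm5, a lysosomal protein of blood cells, differed by 1.08 and -0.60, and Tyrobp, the signalling adaptor of myeloid receptors, by 0.64 and -0.43. Adgre1 (F4/80) did not follow, at -1.07 and -0.31. The part of macrophage number in these differences was not tested.

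The few neutrophil genes measured were higher on day 1 and alike on day 7. Of 17 markers listed, 4 passed the filter, and they summed to 819 and 1897 on day 1 and to 129 and 142 on day 7. Their median difference was 0.98 on day 1 and 0.08 on day 7. In the sham, day 14, day 28 and day 56 pairs it was -0.39, 0.88, -1.30 and -0.05, so day 14 came near day 1. S100a8, a subunit of the neutrophil protein calprotectin, read 236 and 639 on day 1 and 33.2 and 35.2 on day 7. Il1r2, the decoy receptor for interleukin-1, read 84.9 and 383 on day 1 and 28.4 and 29.1 on day 7. The monocyte chemokine Ccl2 read 1049.6 and 2515 on day 1 and 626 and 355 on day 7. Ccl7 followed it at 1.24 and -0.65. Of 27 chemokine and cytokine genes, 18 were higher on day 1 (median 0.46) and 14 on day 7 (median 0.02). Of all genes 37.9% and 47.8% were higher on those days. In the list 10 (37.0%) were higher in both pairs, against 16.2% of all genes. Another 8 (29.6%) were higher and then lower, against 21.6%.

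Spp1, or osteopontin, a matrix and cytokine protein of infarct macrophages, read 99.96 and 1369 on day 1 and 708 and 358 on day 7, differences of 3.58 and -0.95. The spread of this gene over the other pairs was as wide, from -3.23 to 3.24, and the turn of 4.53 ± 2.14 did not pass (limma adjusted p = 1). Among the other matricellular genes, Postn (periostin) stood at 1.57 and -0.10, Tnc (tenascin C) at 1.42 and -0.31 and Timp1, an inhibitor of matrix proteases, at 0.87 and -0.30. Col1a1, the main fibrillar collagen, read 154 and 109 on day 1 and 3344 and 3510 on day 7, so both arrays of day 7 were far above both of day 1. Of 24 matricellular and fibrosis genes, 11 turned from higher to lower, against 21.6% of all genes. That count was 12 with the array medians set equal and 15 after quantile normalization. The medians of that list were 0.30 and -0.16, against -1.48 on day 28 and 0.76 on day 56.

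Most immediate early and heat shock genes were also higher and then lower. Of 19 immediate early genes, which answer growth signals and stress within minutes, 12 were higher and then lower, against 21.6% of all genes. None turned the other way. Their medians were 0.37 and -0.28, against -0.04, 0.36, 0.45 and 0.08 in the sham, day 14, day 28 and day 56 pairs. Myc read 139 and 335 on day 1 and 76.8 and 56.9 on day 7. Egr2 differed by 0.94 and -0.52. Of 22 heat shock and unfolded protein genes, 15 were higher and then lower, against 21.6% of all genes. Their medians were 0.16 and -0.14, against -0.51, 0.32, -0.58 and -0.09 in the sham, day 14, day 28 and day 56 pairs. Hspa1a, the inducible Hsp70, read 279 and 833 on day 1 and 89.4 and 84.2 on day 7. Among the 11 mitotic genes that passed the filter, of 34 listed, 7 were higher and then lower, against 21.6% of all genes. That count was 5 under both other scalings. Hmox1, the haem oxygenase that answers oxidative stress, differed by 0.21 and -1.56. No member of these lists passed the test of the turn.

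**Figure D5:**
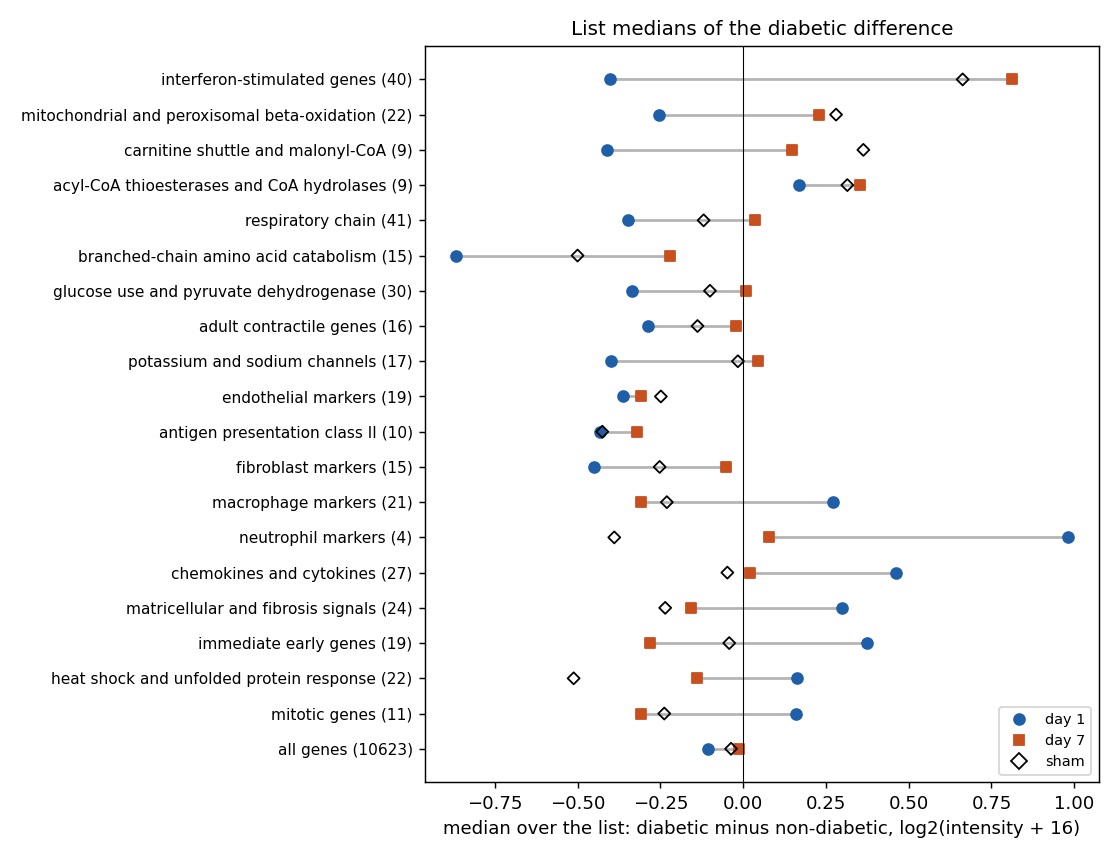
The x axis gives the median over each gene list of the diabetic minus non-diabetic difference in log2(intensity + 16) on day 1 (circles), day 7 (squares) and in the sham pair (diamonds), with the number of genes measured in brackets. Interferon-stimulated genes moved from -0.40 to 0.81, macrophage markers from 0.27 to -0.31, and endothelial markers were at -0.36 and -0.31; all genes are in the bottom row.

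Most endothelial markers were lower on both days. Of 19 endothelial markers, 12 were lower in both pairs, against 30.6% of all genes, and the medians were -0.36 and -0.31. With the array medians set equal 10 of them were lower in both, against 20.9% of all genes, and after quantile normalization 11, against 22.0%. Their summed intensity was 8324 and 6366 on day 1 and 7233 and 5843 on day 7. Tie1, an endothelial receptor tyrosine kinase, read 303 and 175 on day 1 and 362 and 205 on day 7. Flt1, a VEGF receptor, differed by -0.96 and -0.41. Vwf, the von Willebrand factor, went the other way at 0.25 and 0.36. The same list had medians of -0.22 to -0.44 in the other pairs. Of 10 class II antigen presentation genes, 5 were lower in both pairs, against 30.6% of all genes, 1 was higher in both and 4 turned. Among the 5 was RT1-Db1, which read 109 and 51.0 on day 1 and 568 and 282 on day 7. Cd74, the invariant chain of class II, differed by -1.23 and -0.33.

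Most ion channel genes were lower on day 1, in 15 of 17 measured, against 62.1% of all genes. Of these 17 potassium and sodium channel genes, 8 were lower in both pairs, against 30.6% of all genes. Another 7 were lower and then higher, against 31.6%. With the array medians set equal and after quantile normalization 7 were lower in both, against 20.9% and 22.0% of all genes. There 6 were lower and then higher, near the 33.5% and 28.6% of all genes. Kcnd2, which carries the transient outward current of the ventricle, read 78.1 and 17.8 on day 1 and 62.8 and 40.9 on day 7. Its auxiliary subunit Kcnip2 read 771 and 411, then 1133 and 1249. Kcna4, the fetal and endocardial channel of the same current, differed by -0.21 and 1.45.

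The turn itself, the day 1 difference minus the day 7 difference, was tested with limma against the spread of the 4 other pairs, with 3 residual degrees of freedom. It passed for 5 probe sets (0.0268%): Zdhhc5, Reg3g and 3 without a listed gene. The difference on day 1 alone passed for 1 probe set (0.00537%), Zdhhc5, and that on day 7 alone for 2 (0.0107%), Zdhhc5 and Rsu1.

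Zdhhc5, a palmitoyltransferase of the cell surface, read 0.00332 and 266 on day 1 and 430 and 0.00236 on day 7, so that 1 array of each day was near zero and not the same condition. The turn was 8.94 ± 0.57 (SE; limma adjusted p = 0.000471). Its size is set by the offset, since the dim arrays are near zero: it was 16.8 with offset 1 and 5.32 with offset 64. Its other 2 probe sets did not show it, at -0.0017 and -0.11 for the first and 0.33 and -0.16 for the second. The call therefore belongs to a single probe set and not to the gene as measured by all 3. Whether such switches between near-zero and bright arrays, here and in Rsu1, Fam111a and the probe sets without a listed gene below, follow the amount of transcript or only how a probe set binds it was not tested. Rsu1, the Ras suppressor that binds the integrin-linked kinase complex, read 931 and 531 on day 1 and 978 and 20.9 on day 7; the day 7 difference of -4.75 ± 0.39 passed (SE; limma adjusted p = 0.00314) and its differences at the other times were 0.05 to 0.41.

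Reg3g, a secreted C-type lectin that kills Gram-positive bacteria, read 53.7 and 321 on day 1 and 77.1 and 14.8 on day 7. The turn was 3.87 ± 0.41 (SE; limma adjusted p = 0.0254), and the gene differed by -0.22 to -0.0019 at the other times. It was the only called member of the turn in any of the lists. The 3 probe sets without a listed gene read 11.6 and 243, then 166 and 9.56; 243 and 25.9, then 30.3 and 205; and 11.7 and 64.1, then 64.8 and 8.03. In each of them the brightest arrays were the diabetic array of 1 day and the non-diabetic array of the other.

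The other genes with large turns by size did not pass the test of the turn. Fam111a, a protease that restricts viral replication, read 17.9 and 964 on day 1 and 1315 and 35.3 on day 7, the largest opposite differences of any named gene by the smaller of the 2 (4.85 and -4.70). Its other pairs ran from -4.67 to 6.28, and the turn did not pass (limma adjusted p = 1). The class I genes RT1-CE16 and RT1-T24-3 turned in opposite orders, at 1.23 and -1.48 and at -2.01 and 1.73. Retsat, the retinol saturase, read 283 and 1223 on day 1 and 618 and 343 on day 7; it was higher in every other pair, by 0.72 to 1.55, and its turn of 2.87 ± 0.57 did not pass (limma adjusted p = 0.634). Adgrv1, a very large adhesion receptor, differed by -1.35 and 1.47, and was higher in every other pair by 0.42 to 1.06. Cyp2e1, the cytochrome P450 induced by ketone bodies and ethanol, read 243 and 99.2 on day 1 and 149 and 355 on day 7, differences of -1.17 and 1.17, against 1.21 to 2.69 in the other pairs. Hamp, which encodes the iron hormone hepcidin, read 736 and 1532 on day 1 and 525 and 261 on day 7. Cd300c2, a receptor of myeloid cells, differed by 1.02 and -1.09.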

How the data were processed

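The authors deposited a table of intensity values for 31099 probe sets on 12 arrays, made with PLIER in Affymetrix Expression Console per the submitters' processing notes; the sources used here name no version. The intensity values were on a linear scale and were not rescaled further. From the deposited intensities, 57 control probe sets were left out and log2(intensity + 16) was taken. Symbols came from GEO's platform annotation: 20826 probe sets had 1 symbol, 436 several and 9780 none. Testing was done in R 4.3.3 with limma 3.58.1 (lmFit, eBayes with trend, Benjamini-Hochberg adjustment over 18625 probe sets). The fit over both days used all 12 arrays with time point as a block (4 residual degrees of freedom). The single-day and turn tests took their spread from the 4 other pairs. In simulated tests, changes of 3 on the log2 scale in 200 of 18625 probe sets were recovered in 97% for the difference over both days and in 36% for the turn. Changes of 2 were recovered in 76% and 0%, and changes of 1 in 0% of both.

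Named genes were the 15 higher and 15 lower in both pairs with the largest smaller difference, 10 in each turning order, every called gene, up to 5 members of each list, and a set of genes looked up by name. Those from outside the rule are given as values. Alternatives were other offsets (1 and 64), no filter, other scalings, no variance trend, no time point block and left-out pairs. The members and lists were chosen with earlier results of these data known.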

Additional observations from a re-analysis of the deposited data

Results flagged for a closer look

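These results were picked out because the diabetic difference on day 1 and that on day 7 differed by the test of the turn itself. Zdhhc5 had a day 1 minus day 7 difference of 8.94 ± 0.57 (limma adjusted p = 0.000471), carried by 1 of its 3 probe sets and taken against arrays at 0.00332 and 0.00236, so that it was 16.8 with offset 1 and 5.32 with offset 64. Reg3g had 3.87 ± 0.41 (limma adjusted p = 0.0254). The 3 probe sets without a listed gene had 6.06 ± 0.67, -4.88 ± 0.58 and 3.28 ± 0.41, with limma adjusted p-values of 0.0254, 0.0363 and 0.0458. Each compares single pooled arrays, 1 per condition and day.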

How the results depend on the processing

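Each count below is of probe sets past an adjusted p of 0.05 by limma unless said otherwise. The difference over both days passed for 5, for 3 with offset 64, 2 after quantile normalization, 1 when the day 56 pair was left out, 2 when that of day 1 was and 1 when that of day 7 was. It passed for 0 without the sham pair and 0 without the time point block (326 and 306 at an unadjusted p under 0.05). On the 4 arrays alone it passed for 2, for 15 after quantile normalization (9 higher and 6 lower), and for 0 with offset 64 and 0 without the block (651 and 286 unadjusted). The first week minus the other pairs passed for 0, and for 2 without the day 1 pair (Zdhhc5 and Rsu1). Day 1 alone passed for 1, for 9 with offset 1, 9 with offset 64, 2 with no filter, and 0 without the sham or the day 56 pair (517 and 617 unadjusted). Day 7 alone passed for 2, and for 7 with offset 1. The turn passed for 5, for 11 with offset 1, 1 after quantile normalization, 1 with no variance trend, 1 without the sham pair and 2 without the day 56 pair.

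Counts of probe sets past 1 in both pairs moved with the offset and the fold. Higher in both, 17, became 33 with offset 1, 9 with offset 64 and 6 past 1.5. Lower in both, 15, became 36, 5 and 3. Higher and then lower, 12, became 20, 3 and 5, and lower and then higher, 17, became 31, 2 and 2. Median scaling changed none of these counts by over 1.5 times.

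Over both days, Pik3c2g passed under 7 of 11 alternatives (adjusted p 0.0177 to 0.331), Acot1 under 6 (0.0177 to 0.898), Tbc1d2 under 4 (0.0251 to 0.389) and Card9 under 3 (0.0251 to 0.428). The turn of Zdhhc5 passed under 8 of 8 (6.12e-06 to 0.00664) and that of Reg3g under 4 of 8 (0.00619 to 0.132). No called result changed sign. Uncalled differences over both days did: Col1a1 (-0.19), Postn (0.73) and Timp1 (0.29) went to 0.07, -0.10 and -0.30 without the day 1 pair, and other probe sets of Agpat3 (0.94) and Slfn4 (0.998) gave -0.02 and -0.19, and -0.0062. The list counts were also recomputed under other scalings and offsets chosen after seeing the data, and the leading counts of the interferon, beta-oxidation, respiratory chain (all lower and then higher), branched-chain and endothelial (lower in both), immediate early, macrophage, heat shock and mitotic lists (higher and then lower) stayed within 1.5 times. Smaller counts did not: respiratory chain genes lower in both went from 13 to 7 with medians set equal, and beta-oxidation genes higher in both from 2 to 5. No paired analysis by replicate number was possible because each group has 1 array; the time point is the block. The number of arrays limits the precision.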
